A study of Mus musculus with 12 samples.

Results

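Receptors that restrain fat breakdown or sense fatty acids were followed in RNA-seq of mouse inguinal white adipose tissue (iWAT), a subcutaneous depot that can form beige fat. The set was chosen by name and holds 8 of the 24091 genes in the table: Ffar2, Ffar4, Hcar1, Hcar2, Sucnr1, Adora1, Ptger3 and Npy1r. All 8 were among the 15413 genes tested, those with more than 0.1 FPKM (reads scaled to transcript length and library size) in at least 50% of the libraries. All 8 encode G protein-coupled receptors. In the fat cell, hormones such as noradrenaline raise cAMP, which activates protein kinase A and through it the lipases that release fatty acids. Most receptors of the set couple to inhibitory G proteins of the Gi family, which hold adenylyl cyclase back and so lower cAMP, while Ffar4 also signals through Gq. Their ligands are products of metabolism (short- and long-chain fatty acids, lactate, ketone bodies, succinate) or local signals (adenosine, prostaglandin E2, neuropeptide Y).

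The study asked what loss of the clock transcription factor Bmal1 does in beige fat. Mice with floxed Bmal1 and the Prx1-Cre transgene (bBMKO, BMKO in the labels) were compared with floxed littermates without Cre (bBMCtr), all on the C57BL/6 strain, at ambient temperature or after 2 weeks in the cold (10 °C). Each of the 4 groups had 3 libraries. Ambient temperature is 22 °C in the labels and 21 °C in the methods. The figure legends give an age of 6 weeks, with tissue taken 3 h after lights on, whereas cold acclimation is described in mice of 10 to 12 weeks, so ages may differ between temperatures. Both genotypes carry the floxed allele, so the groups differ by Cre. Prx1-Cre acts in subcutaneous progenitors and in mature fat cells, and the RNA came from whole tissue. Fewer cells of a type and less RNA per cell therefore cannot be told apart in any of the values that follow.

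Libraries held 17887795 to 21436282 counts. Arntl, the gene of Bmal1, was at 3.77 to 10.7 CPM (counts scaled to the TMM-adjusted size of a library) in the 6 labelled bBMCtr and at 13.5 to 19.6 CPM in the 6 labelled bBMKO. Every library labelled bBMKO was thus above every one labelled bBMCtr, against the direction of a deletion. The paper reports that Bmal1 protein and transcript were lost in bBMKO iWAT. Counts per gene do not separate the floxed exons from the others, so they check no label. The cause of the higher Arntl counts was not tested. Nr1d1 (Rev-erbα), a gene that Bmal1 induces, was at 119 to 135 CPM in ambient bBMCtr and 58.6 to 73.0 CPM in ambient bBMKO, and at 201 to 225 CPM and 59.3 to 80.9 CPM in the cold groups. Xist was at 1313 CPM or more in each ambient library and at 2.99 CPM or less in each cold library, while Ddx3y ran the other way with 97.3 CPM or more in the cold and at most 4.53 CPM, in ambient bBMKO replicate 2, at ambient temperature. Mammary epithelial markers summed to 793 to 1647 CPM at ambient temperature and to 3.61 to 11.4 CPM in the cold. Cold and sex therefore cannot be told apart in any comparison of cold with ambient libraries that follows, for receptors and other genes alike. The genotype comparisons within a temperature carry the set's main results. Fat cell identity was plain, since all 10 adipocyte markers were detected in every library and summed to between 16660 and 43521 CPM.

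The promoters of the receptors were read first, because members that moved together are described below and because Bmal1 binds the E-box. RefSeq windows of GRCm38.p6 from 250 bases before to 50 bases after a start site were given for 7 of the 8 receptors, in 11 windows. Hcar2 had no entry. The motifs searched on both strands were the E-box CACGTG, the variant CACGTT, the core site of nuclear receptors AGGTCA, the cAMP response element TGACGTCA and its shorter form TGACG, the D-box TTATGNAA, the C/EBP-type site TTGCGNAA and the CArG box of SRF. TGACG lies within TGACGTCA, so those 2 searches overlap. The windows below show the receptor with the largest difference between genotypes (Ffar2, at its upstream start and at one of its downstream starts), the member whose pattern over the libraries was closest to it (Ffar4) and the receptor called for cold and not for genotype (Adora1). Capitals mark motif matches.
Ffar2, upstream start, chr7:30823726-30824025, minus strand: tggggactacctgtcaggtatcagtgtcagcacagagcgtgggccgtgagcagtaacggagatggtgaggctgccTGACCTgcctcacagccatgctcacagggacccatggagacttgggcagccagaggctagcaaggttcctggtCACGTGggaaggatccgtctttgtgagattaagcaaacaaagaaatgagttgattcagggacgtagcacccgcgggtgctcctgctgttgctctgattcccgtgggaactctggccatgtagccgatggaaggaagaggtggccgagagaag
Ffar2, downstream start, chr7:30821143-30821442, minus strand: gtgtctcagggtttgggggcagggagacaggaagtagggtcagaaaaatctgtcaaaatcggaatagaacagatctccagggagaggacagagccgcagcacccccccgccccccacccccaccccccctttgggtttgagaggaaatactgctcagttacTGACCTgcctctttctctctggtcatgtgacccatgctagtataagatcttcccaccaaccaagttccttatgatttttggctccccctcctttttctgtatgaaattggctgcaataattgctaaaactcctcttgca
Ffar4, chr19:38096829-38097128, plus strand: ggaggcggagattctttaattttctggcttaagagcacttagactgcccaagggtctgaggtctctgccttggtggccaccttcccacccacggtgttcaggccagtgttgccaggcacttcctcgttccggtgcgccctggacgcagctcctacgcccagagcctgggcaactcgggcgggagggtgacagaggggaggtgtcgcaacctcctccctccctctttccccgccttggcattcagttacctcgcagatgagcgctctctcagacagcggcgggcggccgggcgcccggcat
Adora1, upstream start, chr1:134235408-134235707, minus strand: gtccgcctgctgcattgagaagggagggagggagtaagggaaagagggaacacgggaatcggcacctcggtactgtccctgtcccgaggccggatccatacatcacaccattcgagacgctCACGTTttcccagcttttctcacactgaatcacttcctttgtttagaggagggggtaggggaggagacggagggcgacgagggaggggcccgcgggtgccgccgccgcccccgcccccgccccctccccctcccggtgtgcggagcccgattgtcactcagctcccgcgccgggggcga

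The upstream Ffar2 window held the only E-box of the 11, its first base 102 bases before the start site. The same E-box letters occurred in 7.15% of all 32851 promoter windows. It also held the core site on the opposite strand, shown as its reverse complement, with the first base 175 bases before the start. Of the other 3 Ffar2 windows, 2 that overlap each other held that core site once more, so that 3 of 11 windows had it against 16.3% of all windows. Adora1 held CACGTT 129 bases before its upstream start, a variant found in 4.68% of all windows. The other 5 searches found no match in the 11 windows, where 1.79% of all windows held the cAMP response element, 20.8% its shorter form, 3.38% the D-box, 0.798% the C/EBP-type site and 1.63% the CArG box. The Ffar4 window had no match to any of these letters. These matches describe the sequence and were not tested as binding sites.

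bBMKO iWAT at ambient temperature had more transcript of 6 of the 8 receptors and less of 1. Ffar2, Sucnr1, Ptger3, Hcar2, Ffar4 and Hcar1 were higher and Npy1r was lower, each past the thresholds of the study's methods. These were a fold change over 1.5, unadjusted p under 0.05 and adjusted p under 0.25 over all genes tested. They were applied here to p-values from edgeR, whereas the study took its p-values from DESeq2. Across all 15413 genes, 3.88% were called higher and 4.75% lower. The median log2 fold change of the 8 receptors was 0.87, beside -0.01 over all genes. In the cold 5 receptors were higher and 1 lower in bBMKO, where 9.67% of all genes were called higher and 13.1% lower, and the median of the 8 was 0.77 beside 0.05. Ffar2 and Ffar4 are among the fat cell differentiation genes that the study picked on these same libraries, so their direction is not independent evidence.

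**Figure D1:**
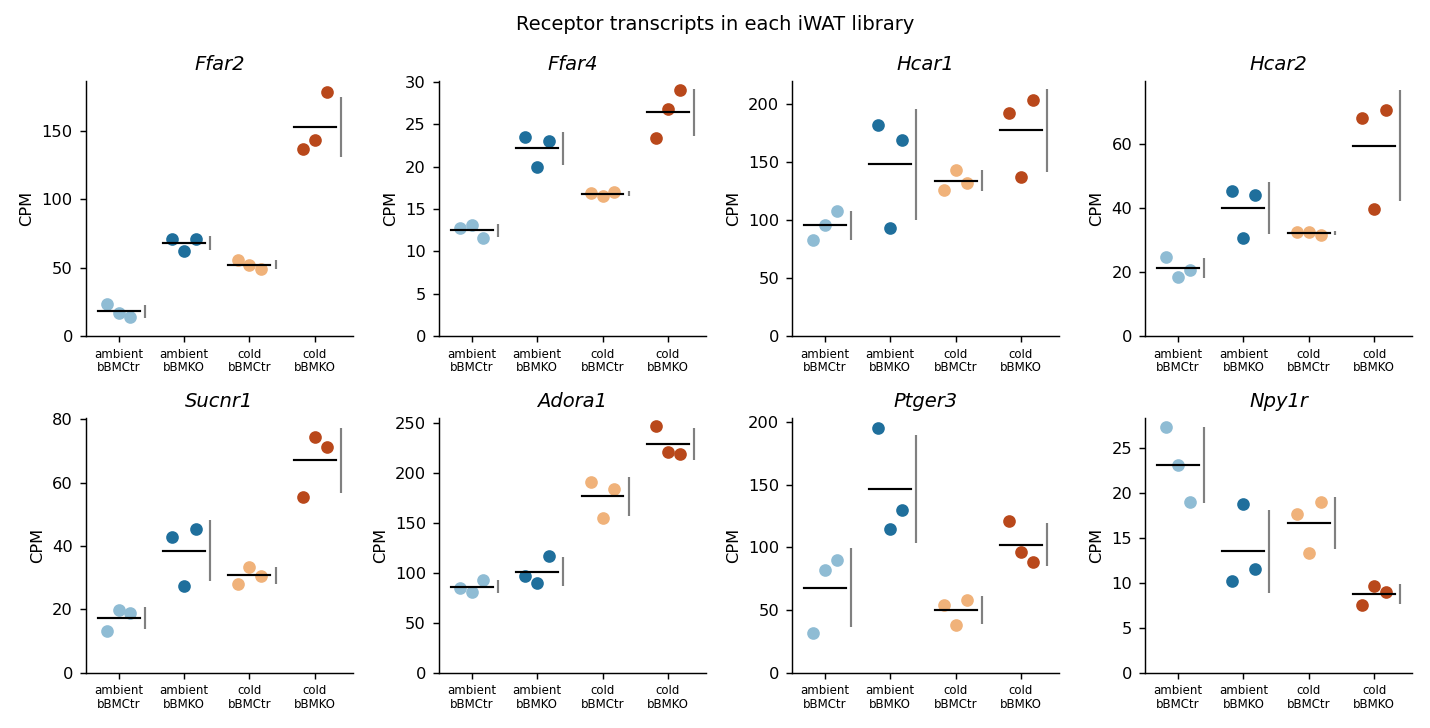
CPM of the 8 receptors in each of the 12 libraries, with 3 points per group, a black line at the group mean and a grey bar for 1 SD on either side. Ffar2 ranged from 13.9 CPM in an ambient bBMCtr library to 178 CPM in a cold bBMKO library, and Npy1r ran the opposite way, from 27.4 to 7.53 CPM.

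Of the set, Ffar2 had the largest log2 fold change between genotypes at both temperatures. Ffar2 (GPR43) binds acetate and propionate and lowers lipolysis in fat cells. It lies on chromosome 7 from 30818357 to 30823775 of mm10. At ambient temperature it was read at 23.2, 16.5 and 13.9 CPM in bBMCtr and at 71.2, 61.9 and 71.2 CPM in bBMKO. Cold libraries gave 55.5, 52.2 and 48.6 CPM in bBMCtr and at 137, 143 and 178 CPM in bBMKO. The groups stood apart at both temperatures, and the lowest ambient bBMKO library was above every cold bBMCtr library. Ffar2 rose 3.81-fold with genotype at ambient temperature (log2 fold change 1.93, SE 0.17, adjusted p = 0.000389 in edgeR's quasi-likelihood fit, SE being the standard error). Between the cold groups it rose 2.93-fold (1.55, SE 0.17, adjusted p = 0.000405).

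Ffar4 (GPR120), a receptor for long-chain fatty acids including omega-3 fatty acids, lies on chromosome 19 from 38097079 to 38114263. Its libraries stood at 12.8, 13.1 and 11.6 CPM in ambient bBMCtr and at 23.5, 19.96 and 23.0 CPM in ambient bBMKO. Cold values were 16.9, 16.5 and 17.0 CPM in bBMCtr and 23.4, 26.8 and 29.0 CPM in bBMKO. No library of one genotype reached the range of the other at either temperature. Ffar4 was 1.78-fold higher in bBMKO at ambient temperature (log2 fold change 0.83, SE 0.10, adjusted p = 0.00235 by edgeR). In the cold the difference was 1.57-fold (0.65, SE 0.10, adjusted p = 0.00224), close to the fold threshold, and it fell under that threshold without cold bBMKO replicate 3 (0.58).

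Ffar3 and Ffar1, the other fatty acid receptors of the same family, were taken from the list of related receptors, and Ffar3 was near the limit of detection. Ffar3 (GPR41), which also binds short-chain fatty acids, did not exceed 0.235 CPM in any library. Ffar1 (GPR40), the long-chain fatty acid receptor of the pancreatic beta cell, lay between 0 and 5.13 CPM. Its highest ambient library was bBMCtr replicate 1, which also had the most lymphocyte marker transcript (1014 CPM summed over 8 markers), and in the cold it was at 2.51 to 3.22 CPM in bBMCtr and at most 0.0574 CPM in bBMKO. The cold difference of Ffar1 was called lower in bBMKO (adjusted p = 0.0196 by edgeR) and the ambient one was not called (adjusted p = 0.287).

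The receptors for hydroxycarboxylic acids lie next to each other on chromosome 5. Hcar1 (GPR81), the lactate receptor through which lactate lowers lipolysis, spans 123876736 to 123880020 on the minus strand. It was read at 82.7, 95.6 and 108 CPM in ambient bBMCtr and at 182, 93.4 and 169 CPM in ambient bBMKO. Cold bBMCtr libraries gave 126, 143 and 132 CPM and cold bBMKO libraries 192, 137 and 203 CPM. In each temperature bBMKO replicate 2 fell inside the range of the bBMCtr libraries and the other 2 bBMKO libraries were above it. The ambient difference passed at a log2 fold change of 0.63 (SE 0.23, adjusted p = 0.159 by edgeR), just past the fold threshold, and was no longer called without bBMCtr replicate 1 (0.53) or 2 (0.66) or without bBMKO replicate 1 (0.46) or 3 (0.53). Its cold difference was not called (0.41, 95% interval -0.10 to 0.92, adjusted p = 0.193).

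Hcar2 (GPR109A), the receptor for beta-hydroxybutyrate and for niacin, spans 123863570 to 123865516 on the same strand. Its values were 24.6, 18.3 and 20.7 CPM in ambient bBMCtr and 45.4, 30.6 and 44.0 CPM in ambient bBMKO. In the cold they were 32.6, 32.5 and 31.5 CPM in bBMCtr and 68.3, 39.7 and 70.7 CPM in bBMKO. The groups stood apart at both temperatures, with bBMKO replicate 2 the lowest of its group each time, as for Hcar1. Hcar2 was 1.89-fold higher in bBMKO at ambient temperature (log2 fold change 0.91, SE 0.22, adjusted p = 0.0462 by edgeR) and 1.85-fold higher in the cold (0.89, SE 0.22, adjusted p = 0.0139). Only unique reads were counted, so reads that fit both neighbouring paralogs would have been left out.

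Sucnr1 (GPR91) binds succinate, the citric acid cycle intermediate, and is known from fat cells and macrophages. It lies on chromosome 3 from 60081869 to 60087566. At ambient temperature it was read at 13.1, 19.7 and 18.9 CPM in bBMCtr and at 42.7, 27.5 and 45.3 CPM in bBMKO. In the cold its values were 28.0, 33.5 and 30.6 CPM in bBMCtr and 55.4, 74.5 and 71.4 CPM in bBMKO. Every bBMKO library was above every bBMCtr library of its temperature. Sucnr1 rose 2.23-fold with genotype at ambient temperature (log2 fold change 1.16, SE 0.21, adjusted p = 0.0147 by edgeR) and 2.18-fold in the cold (1.13, SE 0.21, adjusted p = 0.00463). Summed macrophage markers overlapped between genotypes at both temperatures. They were at 1516 to 1969 CPM in bBMCtr and 1212 to 2574 CPM in bBMKO at ambient temperature. Cold sums were 1369 to 2240 CPM and 1765 to 2045 CPM. Of the 8 markers, 1 was called higher and 0 lower in cold bBMKO. Mean Mrc1 was 244 CPM in cold bBMCtr and 352 CPM in cold bBMKO, and mean Cd163 156 and 247 CPM, without overlap. Cd14 ran the other way without overlap (means 32.8 and 22.6 CPM), and Lyz2 with overlap (618 and 496 CPM). The part of macrophages in the Sucnr1 values was not tested.

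Among receptors for local signals, Ptger3 was higher in bBMKO, Npy1r was lower and Adora1 was not called. Ptger3 (EP3) is the Gi-coupled receptor for prostaglandin E2, the form through which this prostaglandin lowers lipolysis, and lies on chromosome 3 from 157566892 to 157644758. Its libraries stood at 31.5, 81.8 and 90.2 CPM in ambient bBMCtr and at 195, 115 and 130 CPM in ambient bBMKO. After cold its values were 54.3, 37.6 and 58.0 CPM in bBMCtr and 121, 96.2 and 88.3 CPM in bBMKO. The genotypes did not overlap, but ambient bBMCtr replicate 1 was far below its group and ambient bBMKO replicate 1 far above, and the standard error was the largest of the set. The log2 fold change was 1.11 at ambient temperature (SE 0.35, adjusted p = 0.114 by edgeR) and 1.03 in the cold (SE 0.35, adjusted p = 0.0456). The ambient call was lost without bBMKO replicate 1 (0.85), and the cold call without bBMCtr replicate 2 (0.84) or bBMKO replicate 1 (0.88).

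Npy1r, the Y1 receptor for neuropeptide Y and peptide YY, was the only member lower in bBMKO. It lies on chromosome 8 from 66697422 to 66706798. Its values were 27.4, 23.2 and 19.0 CPM in ambient bBMCtr and 10.2, 18.7 and 11.6 CPM in ambient bBMKO. In the cold they were 17.7, 13.4 and 19.0 CPM in bBMCtr and 7.53, 9.70 and 8.99 CPM in bBMKO. The groups did not overlap, although ambient bBMKO replicate 2 lay just under the lowest bBMCtr library. With genotype Npy1r fell by 0.78 (log2, SE 0.24, adjusted p = 0.0995 by edgeR) in ambient iWAT and fell by 0.93 in cold iWAT (SE 0.24, adjusted p = 0.0166). Without ambient bBMKO replicate 1 the ambient difference was not called (-0.61). Npy itself, the gene of its ligand, had at most 2 counts in any library.

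Adora1, the adenosine A1 receptor, couples to Gi and is among the best known brakes on lipolysis in the fat cell. It lies on chromosome 1 from 134199215 to 134235457. At ambient temperature it was read at 84.3, 80.8 and 93.1 CPM in bBMCtr and at 96.7, 89.2 and 117 CPM in bBMKO, where the groups overlapped. Cold libraries stood at 191, 155 and 184 CPM in bBMCtr and at 247, 220 and 219 CPM in bBMKO, with all 3 bBMKO libraries above the bBMCtr libraries. The log2 fold change with genotype was 0.23 at ambient temperature (95% interval -0.03 to 0.49, adjusted p = 0.276 by edgeR). For the cold groups it was 0.37 (0.12 to 0.63, adjusted p = 0.0314), a 1.30-fold difference under the fold threshold. In GENCODE vM21, 1162 exonic bases of Adora1 overlap Mybph, a muscle gene on the opposite strand with 5 to 153 counts a library beside 1673 to 4223 for Adora1, and whether counting used the strand is not given in the sources used here.

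**Figure D2:**
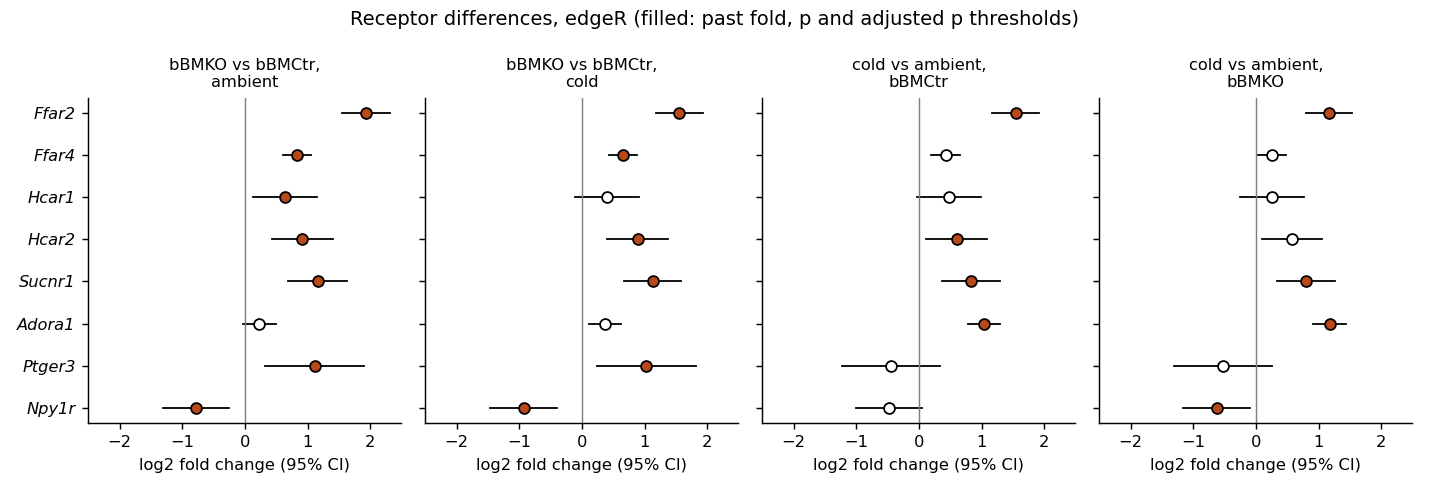
Log2 fold change of each receptor with its 95% interval in the 4 comparisons, from edgeR, where filled points passed the fold, p and adjusted p thresholds. With genotype 6 receptors passed as higher in ambient and 5 in cold iWAT, and with cold Adora1 (1.04 and 1.18) stood beside Ffar2 (1.54 and 1.17).

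Between cold and ambient libraries, Ffar2, Adora1 and Sucnr1 were higher in both genotypes, with the reservation on sex given above. In bBMCtr 4 receptors were higher in the cold libraries (Ffar2, Adora1, Sucnr1 and Hcar2) and 0 lower, where 3.48% of all genes were called higher and 11.3% lower. In bBMKO 3 were higher (Adora1, Ffar2 and Sucnr1) and Npy1r was lower, where 6.41% of all genes were called higher and 12.4% lower. The median over the 8 receptors was 0.54 in bBMCtr and 0.42 in bBMKO, beside 0.00 and -0.02 over all genes. The comparisons share libraries with those of genotype, so their lists are not independent of each other.

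Adora1 was 2.05-fold higher in the cold in bBMCtr (log2 fold change 1.04, SE 0.12, adjusted p = 0.000211 by edgeR) and 2.26-fold higher in bBMKO (1.18, SE 0.12, adjusted p = 7.23e-05). Its lowest cold library, at 155 CPM, was above its highest ambient library, at 117 CPM. Ffar2 rose 2.91-fold with cold in bBMCtr (1.54, SE 0.17, adjusted p = 0.000197) and 2.24-fold in bBMKO (1.17, SE 0.17, adjusted p = 0.000815). Sucnr1 rose in both genotypes, by 0.83 in bBMCtr (SE 0.21, adjusted p = 0.0224) and 0.80 in bBMKO (SE 0.21, adjusted p = 0.0187) on the log2 scale. The bBMKO call for Sucnr1 was lost without ambient bBMKO replicate 2 (0.58). Hcar2 was called in bBMCtr at 0.60 (SE 0.22, adjusted p = 0.0992), lost without ambient bBMCtr replicate 2 (0.54), and in bBMKO it was at 0.57 (95% interval 0.09 to 1.05), just under the fold threshold.

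Npy1r fell by 0.63 on the log2 scale with cold in bBMKO (SE 0.24, adjusted p = 0.0832 by edgeR), a call lost without ambient bBMKO replicate 2 (-0.34) or cold bBMKO replicate 1 (-0.53). In bBMCtr its difference was -0.48 (95% interval -0.998 to 0.05). Ptger3 was the other member with negative values for cold, at -0.44 in bBMCtr (-1.22 to 0.34) and -0.52 in bBMKO (-1.30 to 0.25), and neither was called. It passed as lower in bBMCtr (-0.79) once ambient bBMCtr replicate 1 was left out. Ffar4 was at 0.43 in bBMCtr (0.20 to 0.66) and 0.25 in bBMKO (0.03 to 0.48), under the fold threshold in both. Hcar1 was at 0.49 (-0.02 to 0.999) and 0.26 (-0.25 to 0.77). When the mean of the mammary markers, which follows temperature almost wholly, entered the fit, none of the 8 receptors was called for cold in either genotype. Over all 15413 genes that fit called 0 for cold in bBMCtr, and 106 higher and 15 lower in bBMKO. The loss of calls was thus not particular to the receptors. Ffar2 had the opposite sign there, with wide standard errors (-0.93, SE 0.90, in bBMCtr and -1.30, SE 0.89, in bBMKO).

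The difference between genotypes was next compared between temperatures. Called by the interaction of genotype and cold were 0 of the 8 receptors in edgeR, in DESeq2 and in limma, and 0 had an unadjusted p under 0.05 in any of these, where edgeR called 0.169% of all genes as higher and 0.597% as lower. The largest interaction value was that of Ffar2, at -0.38 on the log2 scale (95% interval -0.90 to 0.15, adjusted p = 0.65). Without ambient bBMCtr replicate 1, the library with the most Ffar2 in its group, this became -0.62 and passed. That fit called 652 of all genes higher and 1115 lower by the interaction, beside 26 and 92 with all 12 libraries. The pass of Ffar2 therefore came with a rise in calls over the whole table. The intervals of the other receptors reached from -1.18 to 1.02 for Ptger3 and from -0.50 to 0.14 for Ffar4. With 3 libraries a group, a 2-fold difference of the genotype effects of Ptger3 thus lay within its interval and was not excluded.

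Levels per transcript length put Hcar1 first in 3 of the 4 groups and Npy1r last in 3. In ambient bBMCtr the order by mean FPKM was Hcar1 (20.6 ± 2.08, SD, n = 3), Ptger3, Adora1, Sucnr1, Hcar2, Ffar4, Npy1r and Ffar2 (4.54 ± 1.36). The ranges of neighbours overlapped in this order except between Hcar1 and Ptger3 and between Adora1 and Sucnr1. In cold bBMKO Ffar2 came first (33.7 ± 5.85), with Hcar1 second (33.4 ± 6.61) and overlapping ranges, and Npy1r last (1.68 ± 0.27). In cold bBMCtr Adora1 was second (21.39 ± 2.30) after Hcar1 (28.7 ± 1.93), without overlap. In ambient bBMKO Ptger3 was second (21.6 ± 5.74) after Hcar1 (30.4 ± 9.94), and the ranges of all neighbours overlapped except those of Ffar4 and Npy1r.

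**Figure D3:**
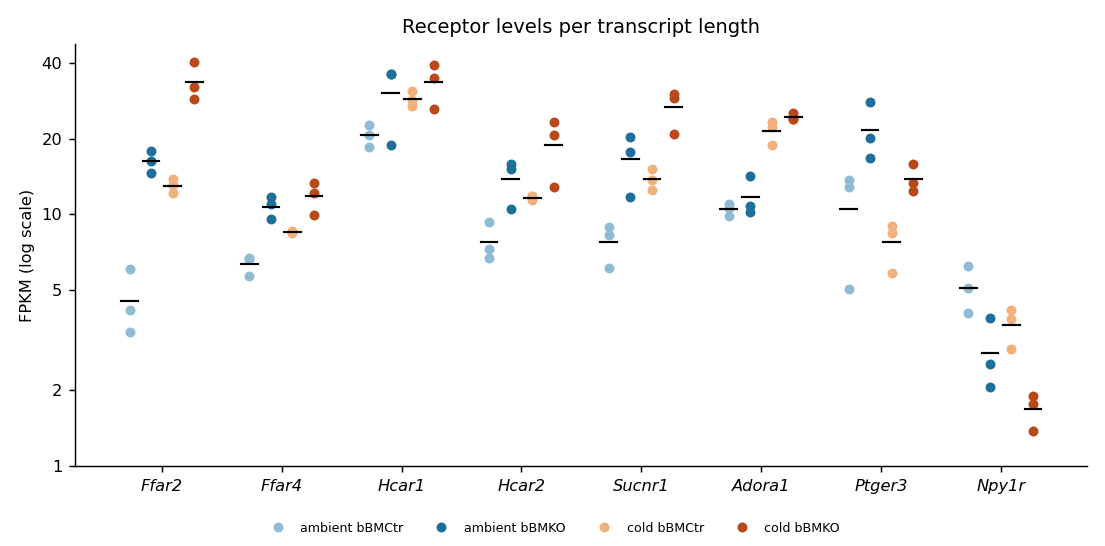
FPKM on a log axis for the 8 receptors, with 3 libraries per group as points and the group mean as a black line. Ffar2 moved from the last place of the set in ambient bBMCtr (mean 4.54 FPKM) to the first in cold bBMKO (33.7 FPKM), while Npy1r ended at 1.68 FPKM.

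Over the 12 libraries, log2 CPM of Ffar2 and Ffar4 ran most closely together (Pearson r = 0.96, Spearman rho = 0.965), and Npy1r ran against every other member, with r between -0.932 (Sucnr1) and -0.573 (Ptger3). The pair with r closest to 0 was Adora1 and Ptger3 (r = -0.034, rho = 0.154). These are descriptions over libraries that share groups and scaling. Among the 14194 tested genes with a mean of at least 1 CPM, those most like Ffar2 were Sctr, Krt79 and Rxrg (r = 0.98, 0.976 and 0.974), and Rxrg, a retinoid X receptor, also stood among the 3 most like Ffar4 with Mcam and Lhfpl2 (r = 0.966, 0.971 and 0.963). Hcar1 was closest to 1600014C10Rik, to Nr1h3, the liver X receptor alpha, and to Acsl1, an acyl-CoA synthetase of the fat cell (r = 0.947, 0.946 and 0.941). Hcar2 was closest to Mgst2, Trpc4ap and Zfand6 (r = 0.972, 0.971 and 0.97), and Sucnr1 to Wdr93, Rcbtb2 and Napepld (r = 0.98, 0.978 and 0.975). Adora1 was closest to Itpka, Trappc10 and Il15ra (r = 0.987, 0.983 and 0.97), Ptger3 to Ropn1l, Slc44a3 and Pgrmc1 (r = 0.962, 0.959 and 0.958), and Npy1r to Utp23, Aff3 and Zfp568 (r = 0.953, 0.938 and 0.93). Spearman rho for these 24 pairs lay between 0.888 and 0.979.

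Adipocyte marker transcripts moved with the same groups as most receptors. The 10 markers (among them Adipoq, Plin1, Cidec and Slc2a4) summed to 16660 to 20820 CPM in ambient bBMCtr and 24160 to 28930 CPM in ambient bBMKO. In the cold they summed to 25226 to 31078 CPM in bBMCtr and 36566 to 43521 CPM in bBMKO. The median log2 fold change of the 10 with genotype was 0.49 at ambient temperature and 0.57 in the cold, smaller than the medians of the receptors. At each temperature 9 of the 10 were positive. As higher 1 was called at ambient temperature and 4 in the cold, beside 3.88% and 9.67% of all genes. Mean Lep was 437 CPM in bBMCtr and 411 CPM in bBMKO at ambient temperature, and 781 and 758 CPM in the cold. With the mean log2 CPM of these markers as a covariate, Ffar2 was called at 2.21 at ambient temperature (adjusted p = 0.00519 by edgeR) and at 1.83 in the cold (adjusted p = 0.00662), and Ffar4 (0.76, adjusted p = 0.0554) and Sucnr1 (0.70, adjusted p = 0.247) were called at ambient temperature only. In that fit Hcar1 was at 0.08, Ptger3 at 0.06, Npy1r at -0.37 and Hcar2 at 0.79 (adjusted p = 0.334) at ambient temperature, none of them called. For genotype in cold iWAT Ffar4 (0.58), Hcar2 (0.76, adjusted p = 0.283), Sucnr1 (0.63), Npy1r (-0.49) and Ptger3 (-0.19) were not called either. For cold in the same fit, Ptger3 was called lower in both genotypes (-1.79 in bBMCtr and -2.04 in bBMKO), and Ffar2 and Adora1 were called higher. Not called were Sucnr1 (0.29 and 0.22, adjusted p = 0.538 and 0.734), Hcar2 in bBMCtr (0.45) and Npy1r in bBMKO (-0.03). Marker sums did not overlap between the groups compared, so the covariate and the group terms cannot be fully separated. Over all genes this fit called 1378 higher and 2100 lower for cold in bBMCtr, beside 537 and 1738 without the covariate.

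Brown fat markers moved with these groups as well. The 6 markers summed to 28.4 to 55.1 CPM in ambient bBMCtr and 85.4 to 184 CPM in ambient bBMKO, without overlap, and to 105 to 410 CPM in cold bBMCtr and 172 to 2371 CPM in cold bBMKO, with overlap. Their median log2 fold change was 2.03 with genotype in ambient iWAT (4 of 6 called higher) and 2.04 in cold iWAT (3 of 6). Over all genes 3.88% and 9.67% were called higher. With cold the median was 1.71 in bBMCtr (4 of 6 higher, 0 lower) and 3.06 in bBMKO (4 higher, 1 lower). Over all genes 3.48% were higher and 11.3% lower in bBMCtr, and 6.41% and 12.4% in bBMKO. Mean Dio2 was 22.5 CPM in ambient bBMKO and 10.9 CPM in cold bBMKO. Their part in the values of the receptors was not tested.

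**Figure D4:**
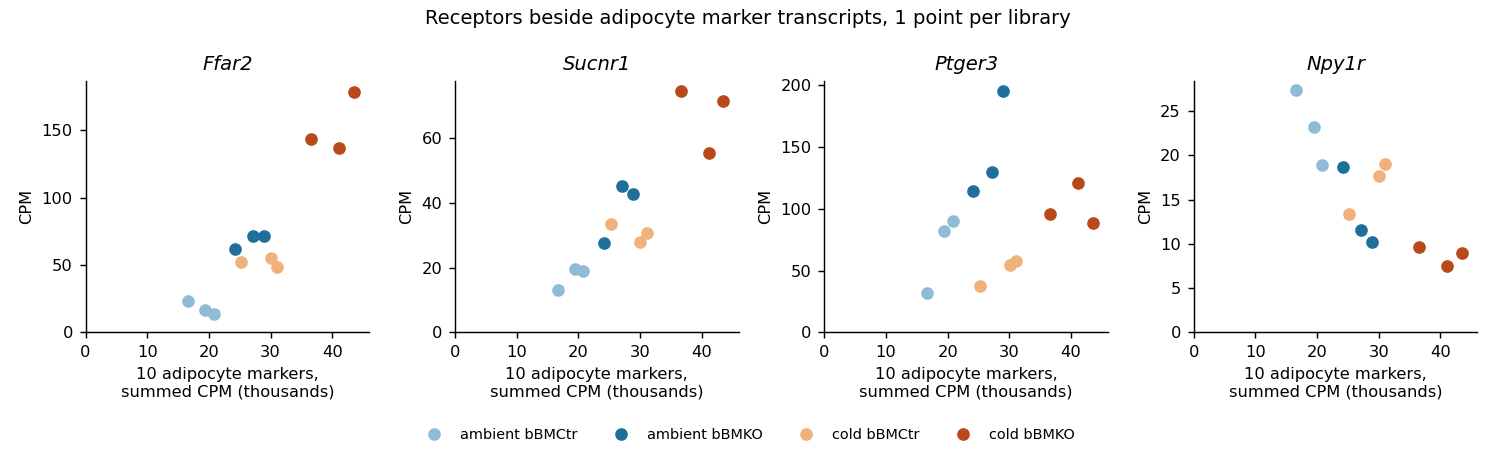
CPM of Ffar2, Sucnr1, Ptger3 and Npy1r in each library against the summed CPM of 10 adipocyte markers, with 1 point per library coloured by group. Ffar2 was at 13.9 to 23.2 CPM in ambient bBMCtr, where the marker sums were lowest, and at 137 to 178 CPM in cold bBMKO, where they were highest, and Ptger3 was at 31.5 to 195 CPM at ambient temperature and at 37.6 to 121 CPM in the cold.

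Progenitor, lymphocyte and muscle transcripts also differed between libraries. The 8 progenitor markers summed to 1966 to 2042 CPM in cold bBMCtr and 2406 to 2686 CPM in cold bBMKO, without overlap. At ambient temperature they overlapped, at 2431 to 2819 CPM in bBMCtr and 2276 to 3206 CPM in bBMKO. The part of progenitors in the receptor values was not tested. Summed lymphocyte markers were at 502 to 806 CPM in cold bBMCtr and at 8.73 to 32.6 CPM in cold bBMKO, and ranged from 16.6 to 1014 CPM in ambient bBMCtr and 15.4 to 260 CPM in ambient bBMKO. With their mean as a covariate all 7 ambient calls were also made. In the cold Ffar2 (1.93), Hcar2 (1.14), Sucnr1 (0.99) and Ffar4 (0.72) were called while Ptger3 (0.34) and Npy1r (-0.78) were not. Over all genes that fit called 493 higher and 626 lower for genotype in ambient iWAT, beside 598 and 732 without the covariate. In cold iWAT it called 624 and 806, beside 1491 and 2022. Cold lymphocyte sums did not overlap between genotypes, so the covariate and genotype cannot be fully separated there. Skeletal muscle markers ran from 41.4 to 7099 CPM, with overlap between genotypes at both temperatures. With them as a covariate the cold genotype call of Ptger3 (0.71) was lost. Over all genes the muscle covariate left 1103 higher and 1718 lower for genotype in the cold, beside 1491 and 2022 without it. Ambient bBMKO replicate 2, the ambient library with the most Ddx3y, was the lowest of its group for 7 receptors and the highest for Npy1r. It also had the lowest adipocyte marker sum of its group (24160 CPM against 27129 and 28930), the highest macrophage sum (2574 CPM against 1212 and 1414) and the highest progenitor sum (3206 CPM against 2394 and 2276). The part of these in its receptor values was not tested.

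Several genes that make, move or remove the ligands were higher in bBMKO. Of 17 tested genes of lactate, ketone and succinate metabolism, 2 were higher and 0 lower in bBMKO at ambient temperature and 9 were higher and 2 lower in the cold. Over all genes tested the shares called were 3.88% higher and 4.75% lower in ambient iWAT and 9.67% higher and 13.1% lower in cold iWAT, and each list of genes around the receptors is read beside these. Slc16a1 (MCT1), the transporter of lactate and ketone bodies, was at 51.8, 41.1 and 49.8 CPM in ambient bBMCtr and at 173, 165 and 114 CPM in ambient bBMKO, which is 1.66 on the log2 scale (SE 0.22, adjusted p = 0.00314 by edgeR). Cold levels of Slc16a1 were 49.7, 48.0 and 51.0 CPM in bBMCtr and 356, 195 and 248 CPM in bBMKO (2.43, SE 0.22, adjusted p = 0.000138). The genotypes stood apart at both temperatures. Also higher in the cold were Ldha (0.81), which makes lactate, and the succinate-CoA ligase subunit Sucla2 (1.44), and lower was Bdh1 (-2.37), the mitochondrial enzyme that interconverts ketone bodies.

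Of 17 tested genes for prostaglandin E2, adenosine and neuropeptide Y, 3 were higher and 0 lower in bBMKO at ambient temperature and 4 higher and 1 lower in the cold, beside 3.88% and 4.75% of all genes in ambient and 9.67% and 13.1% in cold iWAT. Ptges, the inducible synthase of prostaglandin E2, was higher by 0.80 at ambient temperature and 1.202 in the cold on the log2 scale (adjusted p = 0.0383 and 0.00195 by edgeR). Nt5e (CD73), which makes adenosine outside the cell, was higher by 1.15 and 0.71 (adjusted p = 0.0281 and 0.043), and Entpd2, an ectonucleotidase upstream of it, by 0.68 and 0.88 (adjusted p = 0.00424 and 0.000329). Ptges2 (0.75) was higher and Ada (-0.88), which breaks adenosine down, was lower in the cold. In cold against ambient libraries, which also differ in sex, the prostaglandin transporter Slco2a1 was lower by 1.98 in bBMCtr and by 2.28 in bBMKO. Hpgd, which inactivates prostaglandins, was higher by 1.19 and 0.95.

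Among related receptors more were lower than higher in bBMKO. Of 15 tested, 0 were higher and 4 lower in bBMKO at ambient temperature, and 1 was higher and 8 lower in the cold, with medians of -0.37 and -0.59. Over all genes 4.75% were lower in ambient and 13.1% in cold iWAT, and the medians were -0.01 and 0.05. Ptger4 (EP4), which raises cAMP on prostaglandin E2 where Ptger3 lowers it, was at 27.8, 16.03 and 13.1 CPM in ambient bBMCtr and at 7.83, 11.6 and 14.2 CPM in ambient bBMKO. Cold levels of Ptger4 were 22.2, 28.0 and 20.1 CPM in bBMCtr and 9.29, 13.3 and 9.77 CPM in bBMKO. The genotypes overlapped at ambient temperature and stood apart in the cold, with log2 fold changes of -0.76 (adjusted p = 0.184 by edgeR) and -1.12 (adjusted p = 0.0189). Ptger2, the other cAMP-raising prostaglandin E2 receptor, was at -0.65 at ambient temperature (adjusted p = 0.0873). Adora2a, a cAMP-raising adenosine receptor, was at -0.82 and -1.09 (adjusted p = 0.222 and 0.0375), and Ptgfr, the prostaglandin F receptor, at -0.82 and -1.07. In the cold, where these groups also differed in lymphocyte markers, Adora2b was the related receptor called higher (1.08) and Gpr35 (-1.24) was among those lower. The part of lymphocytes in these receptors was not tested.

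Neither Adrb3 nor Adra2a, the adrenergic receptors best known from lipolysis, was called for genotype. Adrb3, the main receptor through which noradrenaline starts lipolysis in the mouse fat cell, was at 222, 261 and 315 CPM in ambient bBMCtr and at 274, 218 and 375 CPM in ambient bBMKO. Cold levels of Adrb3 were 421, 440 and 347 CPM in bBMCtr and 351, 193 and 287 CPM in bBMKO. The genotypes overlapped at both temperatures, and the difference was 0.12 on the log2 scale in ambient iWAT (95% interval -0.42 to 0.66) and -0.54 in cold iWAT (-1.08 to 0.00134). With cold Adrb3 passed as higher in bBMCtr (0.60, adjusted p = 0.141 by edgeR) and was at -0.06 in bBMKO, and the interaction was not called (adjusted p = 0.645). Adra2a, a Gi-coupled adrenergic receptor, was low throughout, at 3.45 to 6.19 CPM, and was called in no comparison.

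Downstream of the receptors, of 19 tested G protein, arrestin and regulator genes 1 was higher in bBMKO at ambient temperature, and 3 were higher and 2 lower in the cold. These counts lie near the shares of all genes, 3.88% higher in ambient iWAT and 9.67% higher and 13.1% lower in cold iWAT, and are no result about the list. Gnai1, an inhibitory G protein subunit through which the set signals, was at 72.8, 135 and 177 CPM in ambient bBMCtr and at 258, 172 and 246 CPM in ambient bBMKO, with overlap (log2 fold change 0.81, adjusted p = 0.126 by edgeR). Cold levels of Gnai1 were 159, 147 and 187 CPM in bBMCtr and 286.2, 300.2 and 308 CPM in bBMKO, without overlap (0.86, adjusted p = 0.0322). In the cold the receptor kinase Grk5 was higher (0.78), as was Gnao1 (0.99), and Grk2 (-0.85) and Arrb2 (-0.76) were lower. In cold against ambient libraries, which also differ in sex, Gna14, a Gq family subunit, was lower by 2.58 in bBMCtr and by 2.51 in bBMKO.

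Of 24 tested genes of the cAMP pathway, 4 were higher and 3 lower in bBMKO at ambient temperature and 9 higher and 3 lower in the cold. All genes had 3.88% higher and 4.75% lower in ambient and 9.67% higher and 13.1% lower in cold iWAT, so the 3 lower in the cold are near that share. Adcy5, an adenylyl cyclase that Gi inhibits, was at 199, 110 and 137 CPM in ambient bBMCtr and at 328, 341 and 303 CPM in ambient bBMKO (1.12, adjusted p = 0.00927 by edgeR). Cold levels of Adcy5 were 203, 185 and 182 CPM in bBMCtr and 413, 487 and 543 CPM in bBMKO (1.34, adjusted p = 0.00133). It stood apart between genotypes at both temperatures. Pde3a, a phosphodiesterase that breaks cAMP down, was higher by 0.87 and 0.81, and Akap1, which anchors protein kinase A at mitochondria, by 0.93 and 1.15. Pde4b, another phosphodiesterase, fell by 0.95 in ambient bBMKO and fell by 1.57 in cold bBMKO (adjusted p = 0.0742 and 0.00317).

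Genes of lipolysis and its control were higher where they were called. Of 17 tested, 4 were higher and 0 lower in bBMKO at ambient temperature and 7 higher and 0 lower in the cold, and 4 of the 17 (Plin1, Plin4, Cidec and Fabp4) are adipocyte markers as well. Over all genes 3.88% were higher in ambient and 9.67% in cold iWAT. G0s2, the inhibitor of adipose triglyceride lipase, was higher by 1.02 at ambient temperature and 1.12 in the cold (adjusted p = 0.00482 and 0.000969 by edgeR). Aqp7, the glycerol channel of the fat cell, was higher by 0.80 and 0.99, and Mgll, which cleaves monoacylglycerol, by 0.75 and 0.87. Abhd5, the activator of adipose triglyceride lipase, was called at ambient temperature (0.75). With cold 10 of the 17 were higher in bBMCtr and 12 in bBMKO, beside 3.48% and 6.41% of all genes, and Aqp7 had the smallest p of the list in both (0.74 and 0.93). Hormone-sensitive lipase (Lipe) was among these, at 0.69 and 0.92.

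**Figure D5:**
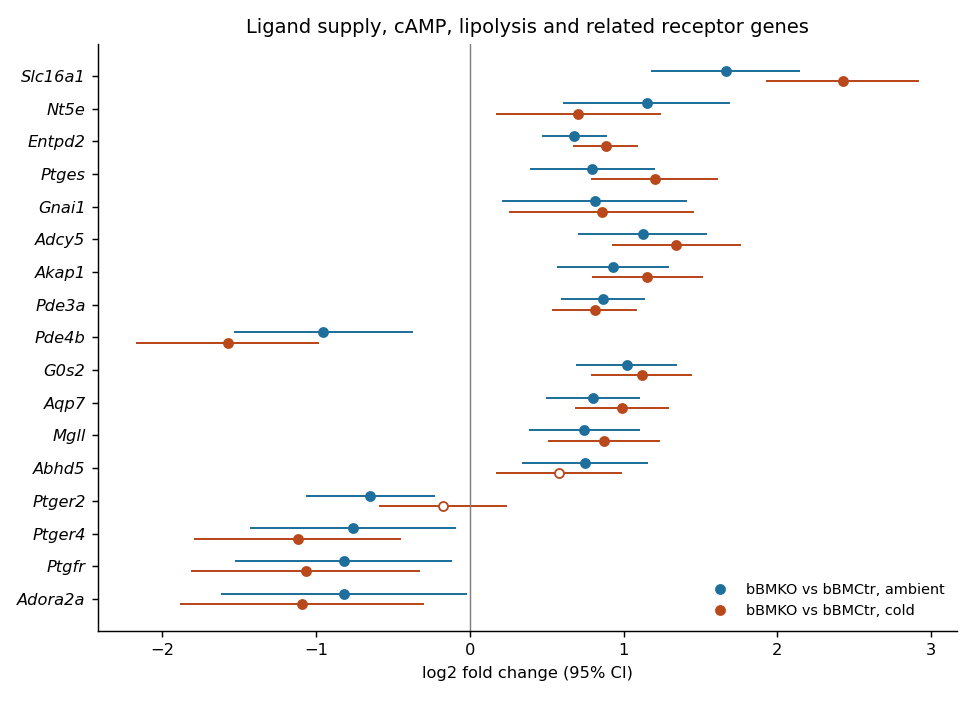
Log2 fold change between bBMKO and bBMCtr with its 95% interval at ambient temperature (blue) and in the cold (orange) for genes of ligand supply, cAMP, lipolysis and related receptors, where filled points passed the thresholds. Slc16a1 lay farthest to the right (1.66 and 2.43), and Pde4b (-0.95 and -1.57), Ptger4, Ptgfr and Adora2a lay to the left at both temperatures.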

How the data were processed

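RNA from iWAT of 12 libraries was sequenced in 51-cycle single reads after a Kapa mRNA HyperPrep preparation. The authors aligned reads to mm10 with STAR and counted unique reads in GENCODE genes with HTSeq-count, which gave the deposited count table. The submitters' processing notes also name DESeq2, limma and edgeR. Tool versions and strand use: not given in the sources used here. A second deposited table holds log2 of FPKM plus 0.1 as the authors computed it, and its values were turned back to FPKM for levels.

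Counts of 15413 genes were fitted in edgeR 4.0.16 (R 4.3.3) with TMM factors by glmQLFit and glmQLFTest over all 12 libraries, 1 term per group. Thresholds follow the study's methods, where the p-values came from DESeq2. P-values were adjusted over all genes by Benjamini-Hochberg. CPM use the TMM-scaled library size, and log2 CPM a prior count of 2. The sample titles number replicates, and the descriptions give each library its own code without saying that the code names an animal. P-values therefore measure the spread between these libraries. No pair of libraries in a group was a duplicate (chi-square per gene of 17.0 to 114). The fit was tested on simulated data.

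All 8 receptors were named with their values. Per list the text names up to 4 called genes with the smallest p in a comparison, and per receptor the 3 genes with the highest Pearson r of log2 CPM. Ffar3, Npy, Mybph, Adra2a, Hpgd and Nr1d1 fall outside that rule and were chosen after their values were seen. The receptors, gene lists and motifs were chosen with earlier results of these data known. Alternatives were DESeq2 1.42.0, limma 3.58.1 on the log2 FPKM values, RLE factors, library size alone, no filter, filterByExpr, only the groups compared, a replicate block, an adjusted p under 0.05 with no fold minimum, marker means as covariates and each library left out in turn.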

Additional observations from a re-analysis of the deposited data

How the results depend on the processing

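Under DESeq2, RLE factors, library size alone, no filter, filterByExpr, limma, the lymphocyte and muscle covariates and the replicate block, the number of receptors called stayed within 1.5 times that of edgeR with TMM in every comparison. For genotype at ambient temperature (7 called), 4 were called with only the groups compared and 3 with the adipocyte covariate. At an adjusted p under 0.05 with no fold minimum 4 were called. Over all genes these settings called 372, 438 and 491 higher and 246, 593 and 137 lower. The edgeR fit with TMM called 598 higher and 732 lower, so calls fell over the whole table as well. For genotype in the cold (6 called) the adipocyte covariate left 1, and there Ptger3 was at -0.19. Over all genes that covariate left 730 higher and 832 lower, beside 1491 and 2022 without it. For cold, the mammary covariate left 0 of 4 calls in each genotype. Over all genes it left 0 in bBMCtr, and 106 higher and 15 lower in bBMKO, so the loss was not particular to the receptors. Ffar2 was at -0.93 (SE 0.90) and Hcar2 at -2.19 (SE 1.36) in bBMCtr, and Ffar2 at -1.30 (SE 0.89) in bBMKO. Leaving out each library in turn gave 4 to 7 calls for genotype at ambient temperature and 5 to 6 in the cold. It gave 3 to 5 for cold in bBMCtr, 2 to 5 for cold in bBMKO and 0 to 1 for the interaction. The 4 came without ambient bBMKO replicate 1, where Hcar1, Ptger3 and Npy1r lost their ambient call. Over all genes that fit called 357 higher and 169 lower, beside 598 and 732 with all libraries. The 2 came without ambient bBMKO replicate 2, where 847 genes were higher and 1837 lower, beside 988 and 1917. The interaction uses all 4 groups, so a fit of only the groups compared is the same fit. Deviations of same-numbered libraries from their group means correlated between -0.70 and 0.45, so the numbers were not taken as pairs. With the replicate number as a block 7, 6, 4, 4 and 0 receptors were called in the 5 comparisons, and no receptor changed its call. With library size alone the median of all genes was -0.13 for genotype in ambient iWAT and -0.17 in cold iWAT, and Hcar1 (0.51) and Ffar4 (0.44) lost their genotype call in these comparisons, as they did in limma (0.50 and 0.46). With 3 libraries a group the intervals were wide, and they were widest for Ptger3. The cause of these changes was not tested.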
